A study of Mus musculus with 2 samples.

Results

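The genes described here are 38 genes of glycolysis, lactate handling, glycogen storage and the neighbouring fate of pyruvate, taken from a fixed list of gene symbols and found, all 38, among the 55536 annotated gene entries of the deposited tables. Total RNA, reduced in ribosomal RNA, was sequenced from the left cerebral cortex of 2 males of B6CASTF1/J, a hybrid of the B6 and CAST strains. The mice were adults of 8 to 10 months, untreated as far as the labels say, and numbered animal 2 (replicate 1) and animal 4 (replicate 2), although both carry the same donor identifier. They form a single group with no control, so levels, ratios between isozymes and the difference between the 2 animals are the comparisons available. The libraries held 26925514 and 30143684 expected counts. No p is given, because an exact sign-flip test on 2 animals cannot go below 0.5.

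Glycolysis splits glucose into pyruvate in the cytosol, and most of its steps are catalysed by small families of paralogous enzymes, or isozymes, that differ in regulation and in the tissues that use them. Pyruvate is then reduced to lactate by lactate dehydrogenase, carried into mitochondria for the pyruvate dehydrogenase complex, or carboxylated. In brain, glycogen is stored mainly by astrocytes, and lactate can pass between cells through monocarboxylate transporters. The tissue held RNA of several cell types: the defining markers of neurons summed to 3398 and 3653 TPM in replicates 1 and 2, of astrocytes to 1149 and 1190, of oligodendrocytes to 1723 and 1803, of microglia to 90.3 and 97.5 and of endothelium to 82 and 73.7, with no marker of these 5 lists at 0. Neuronal markers ran from Rbfox3 at 138 and 149 TPM to Snap25 at 1227 and 1289, astrocyte markers from Aldh1l1 at 23.9 and 21.1 to Slc1a2 at 788 and 820, and oligodendrocyte markers from Mog at 21.8 and 24.1 to Mbp at 905 and 953. Microglial markers ran from Cx3cr1 at 12.9 and 15.2 to Csf1r at 35.4 and 37.6, and endothelial markers from Pecam1 at 8.87 and 8.3 to Ly6c1 at 35 and 29.8. TPM is a level per unit of transcript length, scaled to the same total in each library, which allows genes to be compared. In such bulk tissue, fewer cells of a type and less RNA per cell cannot be told apart.

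As a group these genes were abundant. All 38 reached 1 TPM in both libraries, 33 reached 10 TPM in both, against 62.5% of the 12994 protein-coding genes with at least 1 TPM in both, and 16 reached 100 TPM in both, against 6.92%. Their median was 66.7 TPM, beside 16.2 TPM for those coding genes, and 15 of the 38 lay in the top 5% of them. Together they summed to 7175 TPM in replicate 1 and 7588 TPM in replicate 2. Ordered by mean level, 20 of the 37 neighbouring pairs differed by more than the sum of their standard deviations (SD) with no overlap of the animals. The neighbours that did not were mainly in the lower part of the order, where Pdk3, Pfkfb2, G6pdx, Pygm, Pfkfb3, Pgd and Gyg formed an unbroken run between 22.5 ± 0.12 and 15.4 ± 1.05 TPM (SD, n = 2). The plot of levels by step shows both animals for every gene.

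**Figure D1:**
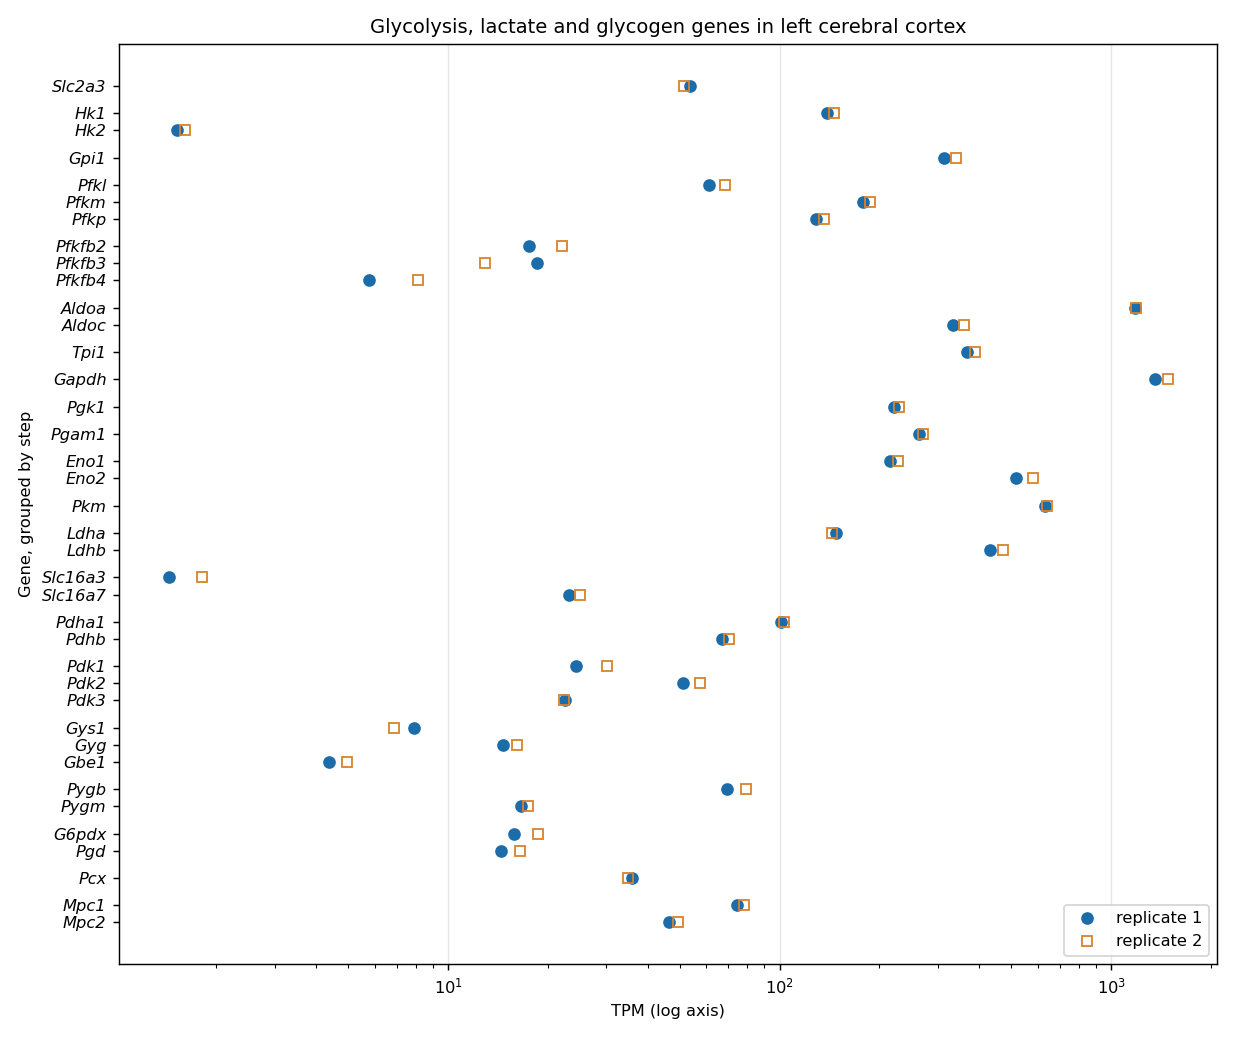
Level of each of the 38 genes in TPM on a log axis, ordered by step from glucose entry to the mitochondrial pyruvate carrier, with a filled circle for replicate 1 and an open square for replicate 2. The enzymes from aldolase to lactate dehydrogenase sit between 144 and 1480 TPM, while Hk2 and Slc16a3 lie below 2 TPM, and the animals nearly coincide for most genes.

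Glucose enters neurons through Slc2a3 (GLUT3), which stood at 53.6 TPM in replicate 1 and 51.6 in replicate 2. Slc2a1 (GLUT1), the transporter of the blood-brain barrier and astrocytes, stood at 47.2 and 39.8 TPM, so Slc2a3 was higher in both animals, by 1.14 and 1.3 times, although in the second quantification the ratio was 0.993 and 1.1. Of the other genes of the SLC2 family examined, Slc2a13, a proton-coupled myo-inositol transporter, had 48.8 TPM on average, Slc2a6 9.59, Slc2a8 9.18 and the insulin-responsive glucose transporter Slc2a4 1.96.

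Hexokinase, which traps glucose as glucose 6-phosphate, was almost entirely Hk1 (chromosome 10, 62268855 to 62379908, minus strand, mm10). Hk1 measured 139 and 146 TPM, and Hk2, the isozyme of insulin-sensitive tissues, 1.52 and 1.61 TPM on 106 and 137 counts. The ratio of Hk1 to Hk2 was 91.6 in replicate 1 and 90.9 in replicate 2, the widest among the 15 isozyme pairs compared, and between 72.8 and 114 by the second quantification and by counts per kilobase of the longest coding transcript. Hk1 held 98.9% ± 0.00623 (SD, n = 2) of the TPM of the pair. Among other hexokinases, Hkdc1 had 2.56 TPM on average and Hk3 0.41, while the ADP-dependent enzyme Adpgk had 6.48. Gpi1, which converts glucose 6-phosphate to fructose 6-phosphate, followed at 313 and 341 TPM, or 190 and 193 TPM on coding transcripts alone. A processed pseudogene nearly identical to it, Gm1840, was given 22.8 and 22.1 TPM.

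Phosphofructokinase 1, the committed and most regulated step, was shared by 3 genes in an order that both animals and both quantifications kept. Pfkm, named for muscle, measured 178 and 187 TPM, Pfkp, the platelet type, 129 and 136 TPM, and Pfkl, the liver type, 61.1 and 68.4 TPM, with no overlap between genes. They held 48% ± 0.372, 34.9% ± 0.247 and 17% ± 0.62 of the TPM of the family (SD, n = 2). Pfkm exceeded Pfkl by 2.91 and 2.74 times. The ratio of Pfkp to Pfkl lay at 2.12 and 1.99, and that of Pfkm to Pfkp at 1.38 and 1.37. Part of Pfkp (748 exonic bases) overlaps Pitrm1 on the opposite strand, which stood at 25.4 and 21.8 TPM.

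The activator of phosphofructokinase 1, fructose 2,6-bisphosphate, is made and removed by the PFKFB enzymes. Their order differed between the animals in the first quantification. Pfkfb3 (chromosome 2, 11471433 to 11554077, minus strand), the isozyme with the strongest kinase bias, measured 18.6 TPM in replicate 1 and 12.9 in replicate 2, whereas Pfkfb2 measured 17.6 and 22.1 and Pfkfb4 5.79 and 8.09, or 3.17 and 3.48 on coding transcripts alone. Pfkfb3 was thus the higher of the first pair in replicate 1 and the lower in replicate 2, with a Pfkfb2 to Pfkfb3 ratio of 0.946 and 1.71. In the second quantification that ratio was 1.13 and 1.78, so Pfkfb2 was the higher in both animals there. Per kilobase of the longest coding transcript the ratio was 0.69 and 1.34. Pfkfb2 exceeded Pfkfb4 in both, by 3.04 and 2.73 times. Tigar, which lowers fructose 2,6-bisphosphate, had 12 TPM on average, and Pfkfb1, the liver isozyme, was near the bottom at 0.02 and 1.03 TPM.

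Aldolase summed to 1530 ± 26.3 TPM (SD, n = 2), above the 1418 ± 87.2 of the Gapdh step by less than the sum of their SDs. In the second quantification the order was the other way, with aldolase at 1315 and 2099 TPM and Gapdh at 1788 and 2694. Aldoa (chromosome 7, 126795234 to 126800751, minus strand), the ubiquitous isozyme, measured 1178 and 1188 TPM, and Aldoc, the brain isozyme marked in astrocytes, 333 and 360 TPM. Aldoa was higher by 3.42 ± 0.165 times, and Aldoc held 22.1% and 23.3% of the pair. Triosephosphate isomerase, Tpi1, which interconverts the products of the aldolase step, stood at 367 and 389 TPM.

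Gapdh, which oxidises glyceraldehyde 3-phosphate and is widely used as a reference gene, had the highest gene-level TPM of the 38, 1357 and 1480 (chromosome 6, 125161715 to 125166467, minus strand). That place rested on the form to which reads were assigned. In the first quantification, 68.7% and 68.2% of the TPM of Gapdh belonged to Gapdh-208, an annotated processed transcript of 483 bases without a coding frame, and 30.1% and 30.8% to the coding Gapdh-201 of 1272 bases. The second quantification gave Gapdh-208 0.0287% and 0.0317%, gave Gapdh-201 0, and placed 48% and 46.1% on the short coding Gapdh-207 of 471 bases. Counting coding transcripts alone, Gapdh had 416 and 463 TPM, which set it in the fifth place, while Aldoa led at 1150 and 1165 TPM. Expected counts per kilobase of the longest coding transcript likewise put Aldoa first, at 17483 and 19609, ahead of Gapdh at 10614 and 12704, whereas the second quantification kept Gapdh first at 1788 and 2694 TPM. Another 78 annotated genes, 75 of them pseudogenes, were at least 95% identical to a Gapdh transcript over at least 200 bases, and together they had 118 and 94.8 TPM in the first quantification and 434 and 565 in the second. The testis gene Gapdhs was near 0, at 0 and 0.09 TPM.

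The next enzymes, each represented by 1 gene of the list, were lower than Gapdh. Pgk1, which makes the first ATP of the pathway, measured 222 and 230 TPM, and Pgam1, the mutase that moves the phosphate, 264 and 270 TPM. A processed copy, Pgam1-ps2, was given 25.1 and 22.7 TPM in the first quantification and 0 in the second. Of their relatives, the testis gene Pgk2 was listed at 0 in both libraries, the muscle gene Pgam2 had 3.46 and 5.44 TPM, and Bpgm, which makes 2,3-bisphosphoglycerate, had 29.4 and 35.4. With 0 counts, up to 3 counts, or 0.122 and 0.109 CPM (counts scaled by library size), would be allowed by counting error.

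Enolase was led by Eno2, neuron-specific enolase (chromosome 6, 124760053 to 124769673, minus strand), with 518 and 582 TPM. Eno1, the ubiquitous isozyme (chromosome 4, 150236721 to 150248879, plus strand), had 216 and 227 TPM. Eno2 was higher in both animals by 2.39 and 2.57 times in the first quantification, but by 1.22 and 2.12 times in the second and by 1.81 and 1.9 times per kilobase of the longest coding transcript. Eno1 has a nearly identical annotated protein-coding copy, Eno1b, and 2 nearly identical pseudogenes, and reads can be split among them. Eno1b was given 158 and 167 TPM in the first quantification and 114 and 160 in the second. With Eno1 and Eno1b summed, the Eno2 ratio became 1.38 and 1.48 in the first quantification and 0.949 and 1.53 in the second, so the lead of Eno2 did not hold in replicate 1 there. The pseudogenes had 76.4 and 72.7 TPM in the first quantification, and Eno1 with all 3 copies then summed to 451 and 466 TPM, still below Eno2. In the second quantification that sum was 581 and 669 TPM, above Eno2 at 488 in replicate 1 and below it at 888 in replicate 2. Eno3, the muscle isozyme, had 6.33 and 5.78 TPM, and Eno4, a sperm enolase, 1.63 and 1.36.

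Pyruvate kinase was Pkm (chromosome 9, 59656368 to 59679375, plus strand) at 631 and 639 TPM, while Pklr, the liver and red-cell gene, had 0.02 and 0 TPM. Pkm makes the M1 and M2 enzymes by including 1 of 2 mutually exclusive exons, M1 being the constantly active form of muscle and brain and M2 the allosterically regulated form of dividing cells and astrocytes. These exons are shown because the forms that share the RNA of Pkm differ by them. Both are exon 9 of their transcript and 167 bases long. The GENCODE M21 sequences, with capitals at the 64 positions where the exons differ (61.7% identity), read as follows.
Pkm-202, M1 exon, chr9:59675029-59675195, plus strand: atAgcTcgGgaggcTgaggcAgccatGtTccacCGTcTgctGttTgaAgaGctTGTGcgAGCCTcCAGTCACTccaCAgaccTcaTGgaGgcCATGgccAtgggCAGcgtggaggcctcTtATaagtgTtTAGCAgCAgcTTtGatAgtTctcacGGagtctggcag
Pkm-201, M2 exon, chr9:59675568-59675734, plus strand: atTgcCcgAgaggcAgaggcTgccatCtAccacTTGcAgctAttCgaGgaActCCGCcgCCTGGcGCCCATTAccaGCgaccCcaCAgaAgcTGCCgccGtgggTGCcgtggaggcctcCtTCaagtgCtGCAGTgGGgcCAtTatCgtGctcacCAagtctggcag

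Pkm-201, the M2 transcript, held 50.9% and 48.3% of Pkm TPM, and Pkm-202, the M1 transcript, 46.7% and 48.9%. Replicate 1 was therefore led by M2 and replicate 2 by M1, with means of 49.6% ± 1.87 and 47.8% ± 1.55 (SD, n = 2) that differed by less than the sum of their spreads. The second quantification gave M2 52% and 52.5% and M1 43.4% and 45%. Of the 11 annotated Pkm transcripts, 1 holds each exon. The pair differs in its ends too, with a first exon of 282 bases in Pkm-201 and 77 in Pkm-202 and a last exon of 648 and 462 bases. How far the shares follow those ends, rather than the exons, was not tested.

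Lactate dehydrogenase was dominated by Ldhb (chromosome 6, 142490249 to 142507957, minus strand), the H subunit known for turning lactate to pyruvate. It measured 431 and 471 TPM, against 148 and 144 TPM for Ldha (chromosome 7, 46841475 to 46855627, plus strand), the M subunit of strongly glycolytic tissue. The ratio was 2.91 and 3.28, and it stayed between 2.61 and 3.39 in the second quantification and per kilobase. Ldhb held 75.5% ± 1.57 of the pair (SD, n = 2), beside a share in the second quantification of 72.3% and 77.2%. The testis gene Ldhc was listed at 0, and Ldhd, which oxidises D-lactate, had 3.45 and 5 TPM.

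Among the lactate transporters, Slc16a7 (MCT2), the high-affinity carrier of neurons, measured 23.2 and 25 TPM, and Slc16a3 (MCT4), the export carrier of glycolytic cells, 1.44 and 1.81 TPM on 43 and 70 counts. Slc16a7 was higher by 16.1 and 13.8 times. Slc16a1 (MCT1), of endothelium and glia, had 9.2 and 9.55 TPM, and Slc16a7 exceeded it by 2.52 and 2.62 times in TPM but by only 1.06 and 1.09 times per kilobase of the longest coding transcript. Bsg (basigin), the chaperone of these carriers, stood at 265 TPM in each library, and Slc16a8, of choroid plexus and retinal pigment epithelium, at 0.31 and 0.03.

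Mitochondria import pyruvate through a carrier of Mpc1 and Mpc2 subunits. Mpc1 had 74.5 and 78.2 TPM and Mpc2 46.5 and 49.5, a ratio of 1.6 and 1.58. A processed copy, Mpc1-ps, was given 25.2 and 34.3 TPM in the first quantification but 2.83 and 0 in the second, so the Mpc1 level is uncertain to that extent. Pyruvate dehydrogenase, the entry to the citric acid cycle, was represented by Pdha1 at 101 and 103 TPM and Pdhb at 67.2 and 70.4. Its other subunits Dlat, Dld and Pdhx had 54.1, 47.4 and 24.8 TPM on average. Pcx, pyruvate carboxylase, which refills the cycle and in brain is known from astrocytes, measured 35.9 and 34.8 TPM.

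The kinases that switch pyruvate dehydrogenase off were led by Pdk2 with 51 and 57.6 TPM. Pdk1 followed at 24.4 and 30.2 and Pdk3 at 22.6 and 22.4, and Pdk4, the starvation-responsive kinase, was the lowest at 10.7 and 6.8. Pdk2 exceeded Pdk3 by 2.25 and 2.57 times and Pdk1 by 2.09 and 1.91 times. The order of Pdk1 over Pdk3 was the other way per kilobase, where the Pdk3 to Pdk1 ratio was 1.21 and 1.1, and on coding transcripts alone, where Pdk1 had 15.2 and 16.1 TPM and Pdk3 21.2 and 20.5.

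Glycogen genes ranged widely, with the brain phosphorylase near the middle of the 38 and the synthetic genes near the bottom. Pygb, the brain glycogen phosphorylase (chromosome 2, 150786735 to 150831758, plus strand), measured 69.6 and 79.2 TPM, and Pygm, the muscle isozyme, 16.6 and 17.4, a ratio of 4.2 and 4.56. Pygl, the liver isozyme, had 2.08 and 2.41 TPM. On the synthetic side, the primer protein gene Gyg had 14.6 and 16.1 TPM, the synthase gene Gys1 7.88 and 6.88, and the branching enzyme gene Gbe1 4.37 and 4.96, so the phosphorylase pair summed to 91.4 ± 7.33 TPM and these synthetic genes to 27.4 ± 0.764 (SD, n = 2). Gys2, the liver synthase, had 0.04 TPM in both. Ugp2, Pgm1 and Pgm2l1, which the wider list groups with the synthetic genes and which are not counted in that sum, had 39.4, 27.4 and 111 TPM on average. Pgm2, grouped likewise, had 4.59. That grouping was made by the list alone and is no measure of a part in making glycogen. The oxidative pentose phosphate branch, which makes NADPH, had G6pdx at 15.8 and 18.7 TPM and Pgd at 14.4 and 16.5. Pgls had 12.6 TPM on average, H6pd 7.75 and G6pd2 0. G6pdx shares 418 exonic bases with Ikbkg on the opposite strand, which was higher, at 26.4 and 22.5 TPM. Gys1 likewise shares 310 with Ruvbl2, at 14.1 and 14.5 TPM. The use of strand is not known, so the G6pdx and Gys1 levels are uncertain to that extent.

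Across the families, 9 of the 15 isozyme pairs were at least 2-fold apart in the same direction in both animals: Hk1 over Hk2, Pfkm over Pfkl, Pfkfb2 over Pfkfb4, Aldoa over Aldoc, Eno2 over Eno1, Ldhb over Ldha, Slc16a7 over Slc16a3, Pdk2 over Pdk3 and Pygb over Pygm. The second quantification gave 8, losing the enolase pair. The direction of the mean log2 ratio was the same under all 7 alternative settings for 13 of the 15. The exceptions were Pfkfb2 with Pfkfb3 and Pdk3 with Pdk1. Most of these settings could not reverse a pair on which both animals agreed. FPKM and rescaled TPM leave a ratio within a library unchanged apart from rounding, and a constant added to TPM keeps its direction. Leaving out an animal can reverse a pair only where the animals disagree. For the other pairs, only the second quantification and counts per kilobase of the longest coding transcript test the direction. The plot of isozyme shares shows both quantifications side by side.

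**Figure D2:**
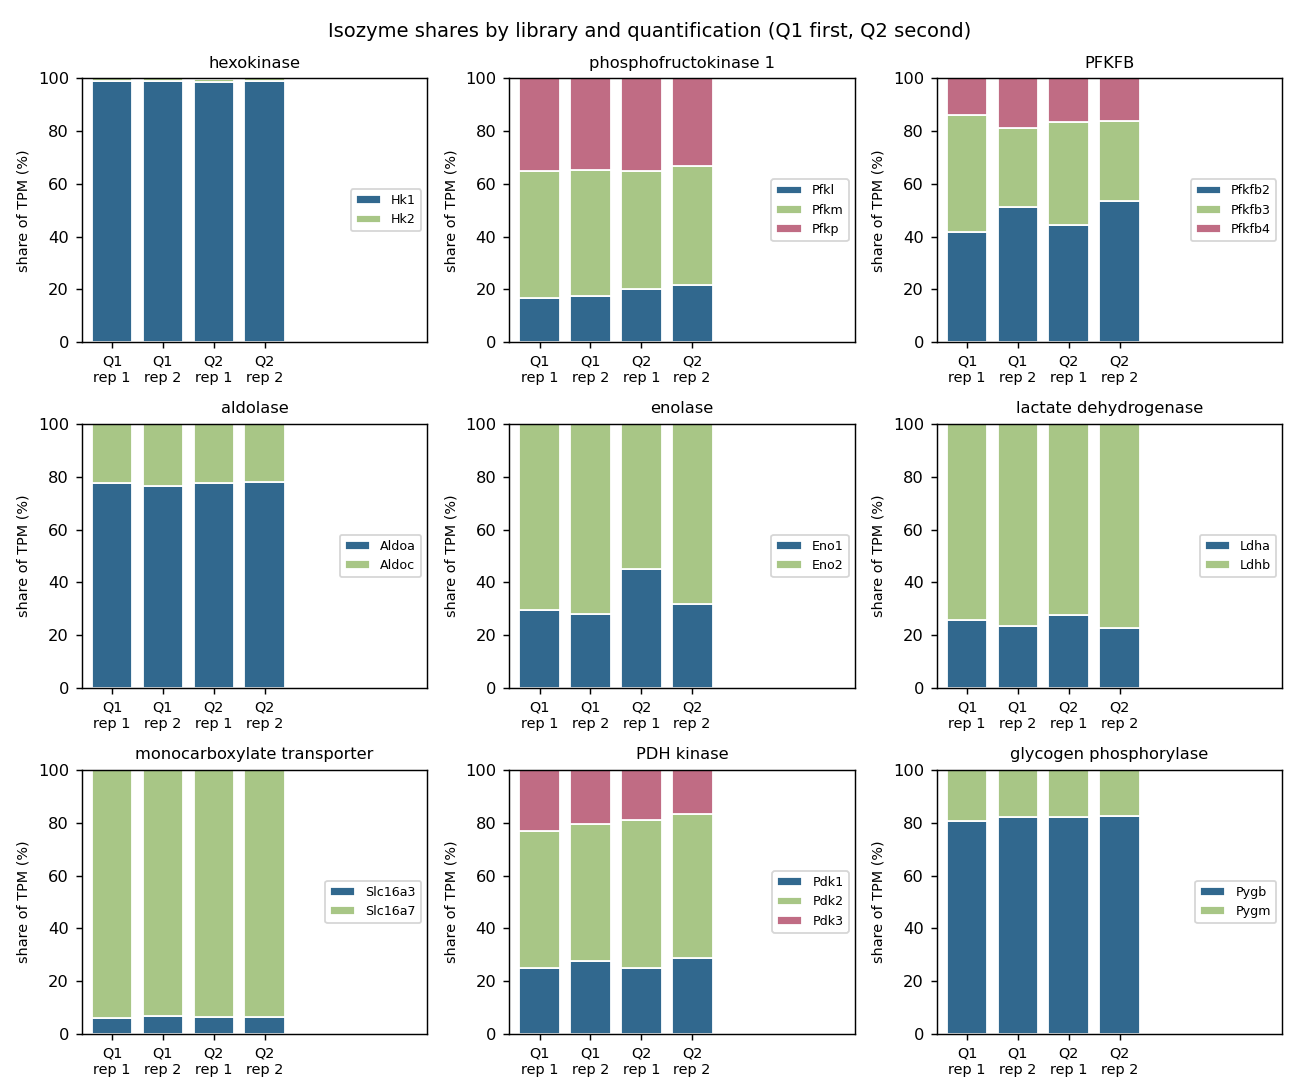
Share in percent of the summed TPM of each listed family held by each isozyme, as stacked bars for replicates 1 and 2 in the first (Q1) and second (Q2) quantification. Hk1, Aldoa, Ldhb, Slc16a7 and Pygb hold over 70% in every bar, and the enolase panel shows Eno2 at 70.5% and 72% in Q1 but 54.9% and 68% in Q2.

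The wider pathway list, 71 further genes of glucose, pyruvate and glycogen metabolism, was lower. Of these, 55 reached 1 TPM in both libraries, with a median of 9.38 TPM over all 71. The highest were Mdh1 (475 TPM on average), Bsg (265) and Mdh2 (196), the first and last being malate dehydrogenases of the shuttle that returns cytosolic NADH to mitochondria. Pgk2, Ldhc, Pdha2, G6pd2 and Pck1, the cytosolic gluconeogenic enzyme gene, were at 0 in both libraries in the first quantification. The second gave Pck1 0.15 and 0.122 TPM and Pdha2 0 and 0.0265.

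The animals differed little in these genes. All 38 had a mean of at least 50 normalised counts, and 2 were at least 25% higher in one animal than in the other, beside 13.0% of the 14163 genes tested. None was at least 2-fold apart, beside 0.861%. The median size of the difference was 1.04-fold for the 38 and 1.08-fold for all genes, but the 38 are abundant: for the 32 of them with at least 500 normalised counts it was 1.03-fold, beside 1.05-fold for all such genes, and 1 was past 25%, beside 3.83%. By direction, 12 were higher in replicate 1, beside 50.2% of all genes, and 26 in replicate 2, with a median log2 ratio of -0.031, and the median of all genes was 0.001. Scaling by spike-ins moved the median of all genes to 0.0715, which is larger than that difference, so the direction of the small ones is not fixed.

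Pfkfb3 was the gene farthest apart. It had 1210 counts in replicate 1 and 862 in replicate 2, a scaled ratio of 1.58-fold (log2 0.66, 95% counting interval 1.44 to 1.72), with a log2 ratio of 0.70 in the second quantification. Replicate 1 was the higher, and 5.97% of all genes were at least 25% higher there. Slc16a3 was higher in replicate 2 by 1.43-fold (6.98% of all genes were at least 25% higher there), but on 43 and 70 counts its interval, 0.978 to 2.17, includes no difference, and its log2 ratio of TPM + 1 was -0.2. These intervals are exact binomial ones and cover counting error only. Of 11 listed genes outside glycolysis known to respond to low oxygen, 9 were tested. Of these, 6 were higher in replicate 1, beside 50.2% of all genes, and 3 in replicate 2, with a median log2 ratio of 0.088. Past 25% there was 1, beside 13.0% of all genes: P4ha1 (1.67-fold, 1317 and 885 counts, named after its values were seen). The highest and lowest of that list were Bnip3 at 62.2 and 66 TPM and Car9 at 0.51 and 2.34 TPM, and its 11 genes summed to 257 and 245 TPM. Whether any of them differs for a reason shared with Pfkfb3 was not tested.

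**Figure D3:**
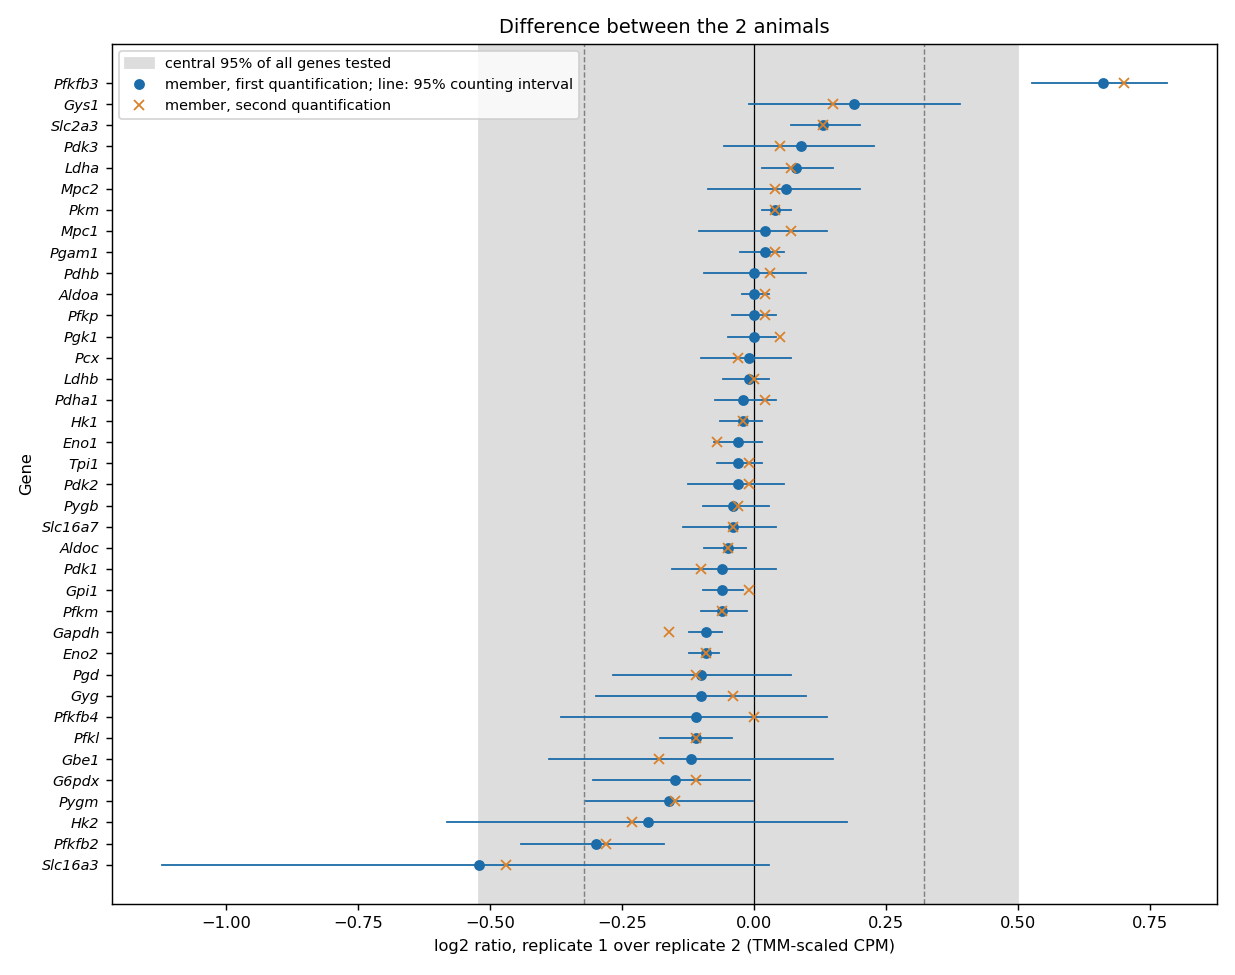
Log2 ratio of replicate 1 over replicate 2 for the 38 genes on TMM-scaled CPM, as circles for the first quantification with lines for the 95% counting interval, and crosses for the second. The grey band is the central 95% of all 14163 genes tested and the dashed lines mark a difference of 25%: Pfkfb3 alone lies outside the band, at 0.66, and Slc16a3, at -0.52, sits at its lower edge with the widest interval.

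Markers of other tissues differed between the libraries. The 8 choroid plexus markers summed to 737 and 5.54 TPM, all 8 higher in replicate 1, led by Ttr at 711 and 2.4 and with Kcne2 at 2.32 and 0. The 9 striated muscle markers summed to 13.9 and 47.7 TPM, all 9 higher in replicate 2, from Myh1 at 0.14 and 0.39 to Acta1 at 5.24 and 11.4. The 5 erythroid markers summed to 577 and 414 TPM, from Alas2 at 2.49 and 1.82 to Hba-a1 at 190 and 143. Of these, 4 were higher in replicate 1, and Hbb-bt, at 13.1 and 13.9 TPM, was not. Beside the muscle markers, the isozymes named for muscle or known from it did not all lie the same way. On scaled counts of replicate 2 relative to replicate 1, Pgam2 stood at 1.5-fold, Slc16a3 at 1.43-fold, Eno3 at 1.26-fold, Hk2 at 1.15-fold and Pygm at 1.12-fold. On the same scale, Pfkm stood at 1.04-fold, Slc2a4 at 1.01-fold, Aldoa at 0.999-fold, Ldha at 0.945-fold and Gys1 at 0.876-fold. Eno3 had the lower TPM in replicate 2, so its direction depends on the scale. The part of other tissue in any of these was not tested. Of the 55 wider pathway genes tested, 8 were past 25%, beside 13.0% of all genes. By direction, 1 was higher in replicate 1, beside 5.97% of all genes, and 7 in replicate 2, beside 6.98%. Pdp1, a pyruvate dehydrogenase phosphatase, was higher in replicate 1 by 1.48-fold, and Pgam2, Ldhd, Pgm2, Hkdc1, H6pd, Epm2a and Eno3 in replicate 2 by 1.26 to 1.5-fold. Pdp1 and Epm2a, a glycogen phosphatase gene, were named after their values were seen.

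The transcript that led a gene was the same in both animals for 35 of the 38, beside 86.3% of 11597 comparable coding genes, and for 32 in the second quantification, beside 80.5%. It was the same in both animals and both quantifications for 26, beside 67.0%. In the first quantification the 3 exceptions were Pkm, Pfkfb3 and Pfkfb4. Pfkfb4-203 held 54.9% and 1.05% of its gene and Pfkfb4-201 0 and 41.9%, on 242 and 294 counts for the whole gene. In the second quantification Pfkfb4-203 held 42% and 27.9% and Pfkfb4-201 0 and 27.5%, so that the forms were nearly level in replicate 2. Hk1 illustrates a split between methods, with Hk1-202 leading at 58.4% and 61.2% in the first and Hk1-201 at 43.9% and 39.8% in the second.

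The coding end of Pfkfb3 differed between the animals in both quantifications, as did some forms of other genes. Gpi1-207, of a gene with 10491 and 12268 counts, held 4.24% and 11.3% in the first quantification and 15.6% and 36.1% in the second. Among genes with few counts, Pfkfb4-201 and Slc16a3-202 were at 0 in replicate 1 in both quantifications. How common such shifts are over all genes was not counted. Slc16a3-202 held 32.3% of its gene in replicate 2 in the first quantification and 24.4% in the second. Transcripts with the last coding exon of Pfkfb3-201 held 58.9% of Pfkfb3 TPM in replicate 1 and 26.8% in replicate 2, and 57.6% and 20.1% in the second quantification. Those with the coding end of Pfkfb3-206 held 17.8% and 49.2%, and 18.1% and 37.2%. Replicate 1, with the higher Pfkfb3 level, was thus led by the former and replicate 2 by the latter, with 4 of the 21 annotated transcripts in each set. The sequences of these ends are shown because they separate the forms. Pfkfb3-201 has 2 coding exons, 63 coding bases in all, that Pfkfb3-206 lacks, and Pfkfb3-206 ends in a coding stretch of 45 bases of its own.
Pfkfb3-201, exon 15, chr2:11478036-11478058, minus strand: cctttgctagggaaagcctgtct
Pfkfb3-201, exon 16 (coding part), chr2:11475767-11475806, minus strand: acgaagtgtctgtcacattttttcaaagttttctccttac
Pfkfb3-206, last coding stretch, chr2:11474499-11474543, minus strand: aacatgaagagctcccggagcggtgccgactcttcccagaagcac

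With 787 and 173 expected counts on Pfkfb3-201 and 65.1 and 342 on Pfkfb3-206, the number of reads that cross these short ends is smaller than the gene counts, and was not analysed here. The plot of transcript forms shows 4 of the genes whose leading form differed between animals or methods.

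**Figure D4:**
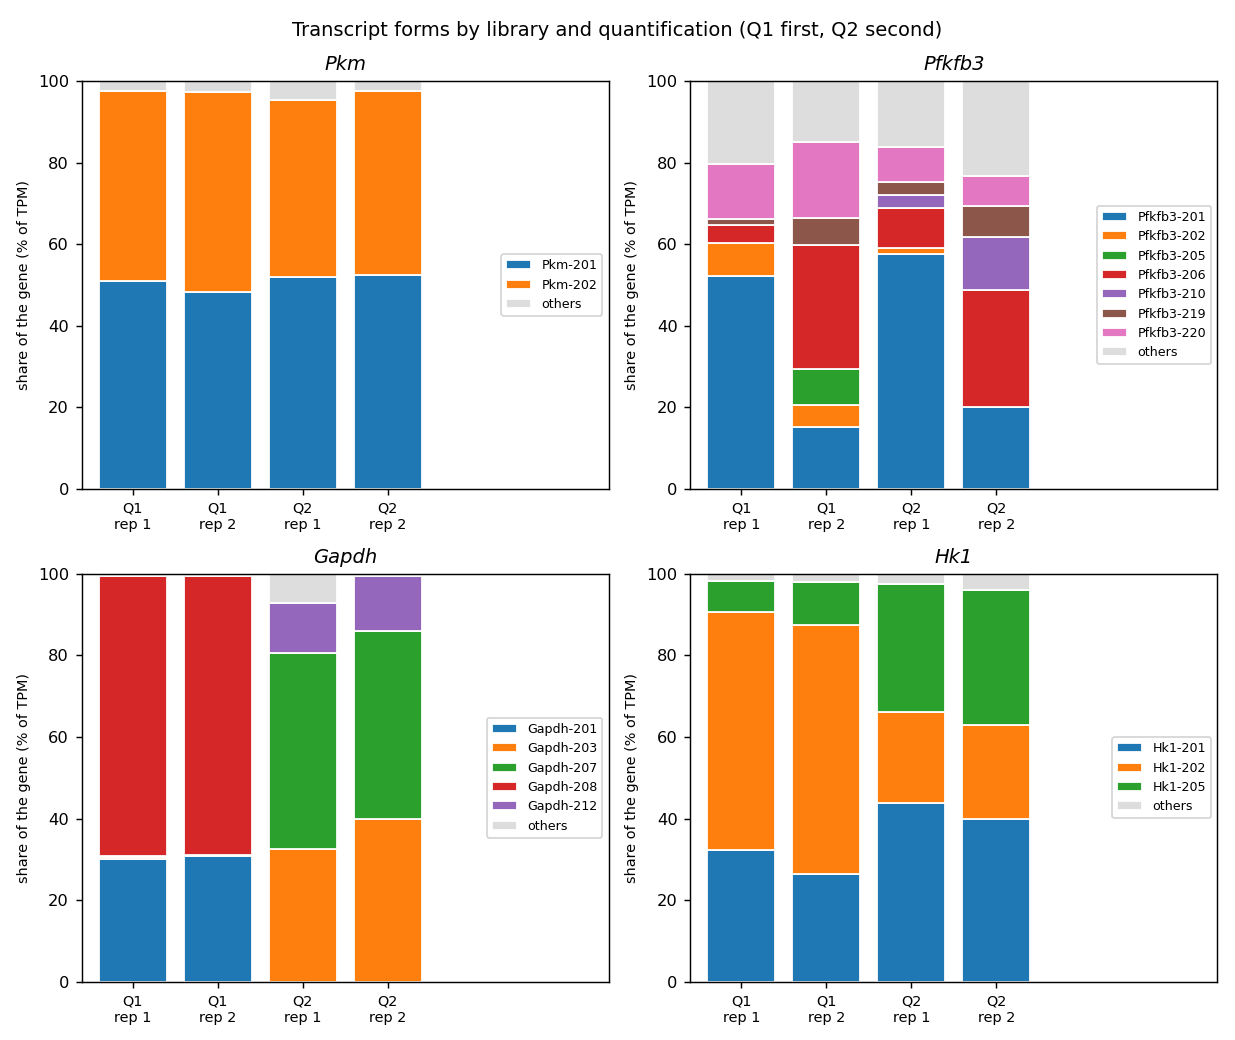
Share in percent of gene TPM held by each annotated transcript of Pkm, Pfkfb3, Gapdh and Hk1, as stacked bars for replicates 1 and 2 in the first (Q1) and second (Q2) quantification. Pkm is split close to evenly in all bars, Pfkfb3-201 has 52.1% and 15.2% in Q1 and 57.6% and 20.1% in Q2, and Gapdh and Hk1 differ by method.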

How the data were processed

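Total RNA of left cerebral cortex from 2 mice was sequenced with added spike-ins, starting from 300 ng each. Per the labels and the notes deposited with the files, the first quantification was made from alignments to the transcriptome on mm10 with GENCODE M21, and the authors deposited from it gene and transcript tables of expected counts, TPM and FPKM. The deposited transcript tables also give each transcript's percent of its gene. A second deposited table per library, made from the reads (2 read files for replicate 1, 1 for replicate 2), gives TPM and estimated counts. The sources used here give neither the programs nor the use of strand, so overlapping genes and near-identical copies are uncertain. Reads from CAST alleles were placed on the B6-based mm10 build. In the second quantification the short RNAs Rn7s1 and Rn7s2 took 332828 and 69636 TPM (271199 and 242610 in the first), which lowers every other TPM of replicate 1 there, so TPM levels of the quantifications are set side by side but not read as differences.

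The members and lists were chosen with earlier results of these data known. Named were all 38 members, the wider pathway genes of the same steps with the 3 highest and the lowest, and the highest, lowest and absent gene of each marker list. A few of the genes so chosen are not reported here. One symbol, Aldoa, has a second gene entry, and the entry with the higher TPM was used. Means and SDs are over the 2 animals. For the difference between animals, expected counts were rounded. Library sizes (24688669 and 27440152) excluded 356 ribosomal RNA genes, tRNA entries and spike-ins. Log2 ratios of CPM after TMM scaling (prior count 2) came from edgeR 4.0.16 for genes averaging 50 or more normalised counts. The coefficient of variation between animals was 0.109 over 18284 genes averaging 10 or more counts. Near-identical copies were found with BLAST 2.17.0 at 95% identity over 200 bases. The calculation of ratios was tested on simulated data. Alternatives were the second quantification, each animal left out, FPKM, rescaled TPM, log2(TPM + 1), size factors of DESeq2 1.42.0, scaling by spike-ins, and another prior count and filter. Counts per kilobase, coding transcripts alone and the sums of Eno1 with its copies were added after seeing the data. Exon sequences are from GENCODE M21.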

Additional observations from a re-analysis of the deposited data

How the results depend on the processing

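Each count was recomputed under the alternatives chosen for it, and each stayed within 1.5 times. Members at 10 TPM in both libraries numbered 33, with 30 to 34 under the alternatives, and wider pathway genes at 1 TPM numbered 55, with 54 to 56. Isozyme pairs at least 2-fold apart numbered 9, with 8 in the second quantification, 10 per kilobase of the longest coding transcript and 9 to 12 when 1 animal was left out. Per kilobase the enolase pair was lost, while Pfkfb3 over Pfkfb4 and Pdk2 over Pdk1 were gained. Counts that require both animals can only stay or rise when 1 is left out, so that setting is no check of them. Members at least 25% higher in one animal numbered 2 and members at least 2-fold apart 0 under all 7 alternatives. The 2 were Pfkfb3 and Slc16a3 except on log2(TPM + 1), where they were Pfkfb3 and Pfkfb4 (log2 0.49 and -0.42). The looser count filters among these alternatives could change neither count, because all 38 members passed the main filter. Members with the same leading transcript in both animals numbered 35, with 32 in the second quantification and 35 on coding transcripts alone. Counting coding transcripts alone lowered Gapdh, Gpi1, Pdk1 and Pfkfb4 by over 1.5 times, from 1418, 327, 27.3 and 6.94 TPM to 439, 192, 15.7 and 3.33. No pair past 2-fold reversed, but 28 of 147 pair ratios moved by more than the SD of the animals. Many of the 147 could hardly move. FPKM and rescaled TPM leave a ratio within a library unchanged apart from rounding. Leaving out 1 of 2 animals always shifts the mean by less than the SD. The share that moved is therefore higher among the settings able to move a ratio. For the enolases, the Eno2 share was 71.2% against Eno1 alone, 58.9% with Eno1b added and 54.5% with all 3 copies added, and the cause of the difference between quantifications was not tested.

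No paired analysis was possible because there is a single group of 2 animals, so a replicate number pairs no samples, and leaving out an animal gives no value for the difference between animals. Depth limits Slc16a3 (43 and 70 counts) and Hk2 (106 and 137 counts) most.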
